A study of Mus musculus with 2 samples.

Results

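The genes described here are 6 matrix metalloproteinases, Mmp2, Mmp3, Mmp9, Mmp10, Mmp13 and Mmp14, and 3 tissue inhibitors of metalloproteinases, Timp1, Timp2 and Timp3. They were chosen by gene symbol, and they are 9 of the 33963 genes in the count table. Their levels were followed in 5 populations of mouse cells of strain 129/Ola during the return of primed pluripotent cells to a naive state. The populations were naive mESCs of the Rex1-GFP line (naive), primed mEpiSCs of the Oct4GIP line (primed), the same Oct4GIP line under AICAR, which activates AMPK, together with the cytokine LIF on day 8 (d8) and on day 16 (d16), and the d16 culture after 10 further passages in 2iL (d16+10p), in which inhibitors and LIF keep cells naive. Reversion was run on mouse embryonic fibroblast (MEF) feeders, so that cells under the d8 and d16 tags can be feeder cells. The paper also took Oct4-negative cells of the primed population for MEF feeders, while its methods keep this line on fibronectin-coated plates. Each population was 1 tagged sample, all 5 were captured together in 1 cDNA library, and the tags were carried by antibodies against CD9 and CD63. No difference below therefore has a replicate check, no p-value was computed, and intervals cover counting error only.

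Matrix metalloproteinases are zinc enzymes that cut collagens and other proteins of the extracellular matrix. Most are secreted as inactive proenzymes, and the TIMPs block their active site. Fibroblasts and macrophages are well known sources of both, and the protease genes are often induced by inflammatory cytokines and by AP-1, a dimer of Fos and Jun proteins.

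The table held 17720 cells, of which 801 carried the naive tag, 1826 the primed tag, 9627 the d8 tag, 4315 the d16 tag and 1151 the d16+10p tag. Median reads per cell ran from 10185 in d16 to 21551 in d16+10p, and the summed reads of a population from 17245249 in naive to 179944974 in d8. Levels are summed reads of a gene per 1000000 reads of all genes (CPM), which are not corrected for gene length and are compared here between groups of cells and not between genes. Cells were clustered without the 9 genes and without the other protease genes listed below, which gave 17 clusters, 15 of them with at least 100 cells. The tags did not sort the cells cleanly by type. Of the primed-tagged cells 423 lay in cluster 12, which was primed pluripotent-like, and 516 of the naive-tagged cells lay in cluster 11, which was naive pluripotent-like, while the rest spread over clusters that other tags dominated. A sum over a tag cannot separate fewer cells of a type from less RNA per cell, and the clusters are used for that below.

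The protease genes fell into 2 patterns. Mmp3, Mmp10 and Mmp13 were highest at d8 and in a fibroblast-like cluster, with a macrophage-like cluster next. Mmp2 and Mmp14 kept their level from d8 to d16 and were highest in another fibroblast-like cluster. Mmp3, Mmp10 and Mmp13 lie on chromosome 9 of GRCm38, in a stretch from 7272514 to 7699585 that holds 10 Mmp genes. Their upstream sequences are shown because these genes moved together, with that of Timp1, which had much the same pattern over the clusters, beside them. Sequences were from the RefSeq promoter table for GRCm38.p6 and cover the 120 bases before the RefSeq start, 5′ to 3′ on the strand of the gene, at chr9:7445702-7445821 for Mmp3, chr9:7502222-7502341 for Mmp10, chr9:7272394-7272513 for Mmp13 and chrX:20870046-20870165 for Timp1, all on the plus strand. Capitals mark TGAGTCA, the binding sequence of AP-1, searched on both strands (TGACTCA when read on the other), and TATAAA, the TATA box, searched on the strand of the gene.
Mmp3: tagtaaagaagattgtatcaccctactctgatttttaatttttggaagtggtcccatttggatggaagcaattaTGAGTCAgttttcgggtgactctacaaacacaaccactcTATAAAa
Mmp10: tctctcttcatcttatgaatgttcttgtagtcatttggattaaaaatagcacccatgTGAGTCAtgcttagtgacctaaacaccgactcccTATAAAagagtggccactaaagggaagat
Mmp13: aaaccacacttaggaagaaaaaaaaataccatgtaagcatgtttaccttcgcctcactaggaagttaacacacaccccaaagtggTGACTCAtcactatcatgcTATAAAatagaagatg
Timp1: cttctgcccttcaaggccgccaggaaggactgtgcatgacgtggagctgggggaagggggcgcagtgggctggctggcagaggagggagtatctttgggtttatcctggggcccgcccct
TGAGTCA began 46 bases before the start in Mmp3, 63 in Mmp10 and 35 in Mmp13, and TATAAA began 7, 29 and 16 bases before it. None of the 4 other members with an entry, Mmp14, Timp1, Timp2 and Timp3, held either motif in this window, and Mmp2 and Mmp9 had no entry. Of 32851 promoters in the table, 2.304% held TGAGTCA and 4.19% held TATAAA. A match is a description of the sequence and not of binding.

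Mmp10 (stromelysin 2; chromosome 9, 7502352 to 7510240), which degrades matrix glycoproteins and can activate other proenzymes, differed most between the populations. Its level was 51.7 CPM in naive and 79.0 in primed cells, 345 at d8 (95% interval 342 to 348), 79.9 at d16 and 62.8 after expansion (d16+10p). Mmp13 (collagenase 3; chromosome 9, 7272514 to 7283331), which cuts fibrillar collagen, was at 9.34, 10.5, 39.9, 11.2 and 8.08 CPM in the same order. Mmp3 (stromelysin 1; chromosome 9, 7445822 to 7455975), a close relative of Mmp10, was at 19.5, 43.4, 87.6, 20.2 and 14.5 CPM. All 3 were highest at d8, and their d16 levels were close to or below the primed levels. Because 8.39% of the 50-base stretches of Mmp3 transcripts are shared with Mmp10 or the gene model Gm15244, a part of the reads could be counted for either gene.

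Mmp2 (gelatinase A; chromosome 8, 92827291 to 92853420), which cuts denatured collagen and basement membrane collagen, was at 58.4 CPM in naive and 119 in primed cells, 132 at d8, 127 at d16 and 55.4 in d16+10p. Mmp14 (chromosome 14, 54431612 to 54445364), the membrane-bound protease that activates the proenzyme of Mmp2 with the help of Timp2, was at 43.5, 67.8, 95.1, 83.1 and 36.8 CPM. Both were lower in naive and d16+10p cells than in the other 3 populations. Mmp9 (gelatinase B; chromosome 2, 164940780 to 164955850) was at 0.928 CPM in naive and at most 3.85 CPM, in d8, and was left out of the fold comparisons because it did not reach 10 CPM in any population.

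Among the inhibitors, Timp1 (chromosome X, 20870166 to 20874735), a secreted protein that also binds CD63 at the cell surface, was at 79.7 CPM in naive and 102 in primed cells, 325 at d8, 94.6 at d16 and 87.6 in d16+10p. Timp2 (chromosome 11, 118301069 to 118355740) was at 108, 144, 397, 166 and 84.6 CPM. Timp3 (chromosome 10, 86300372 to 86349506), the inhibitor that stays bound to the matrix, was at 105, 178, 301, 296 and 100.4 CPM. Timp1 and Timp2 were thus highest at d8 alone, whereas Timp3 was as high at d16. Timp3 lies within Syn3, and 1733 of its 8144 exonic bases overlap Syn3 exons on the opposite strand, so that its reads cannot be assigned with certainty where the counting did not use strand.

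**Figure D1:**
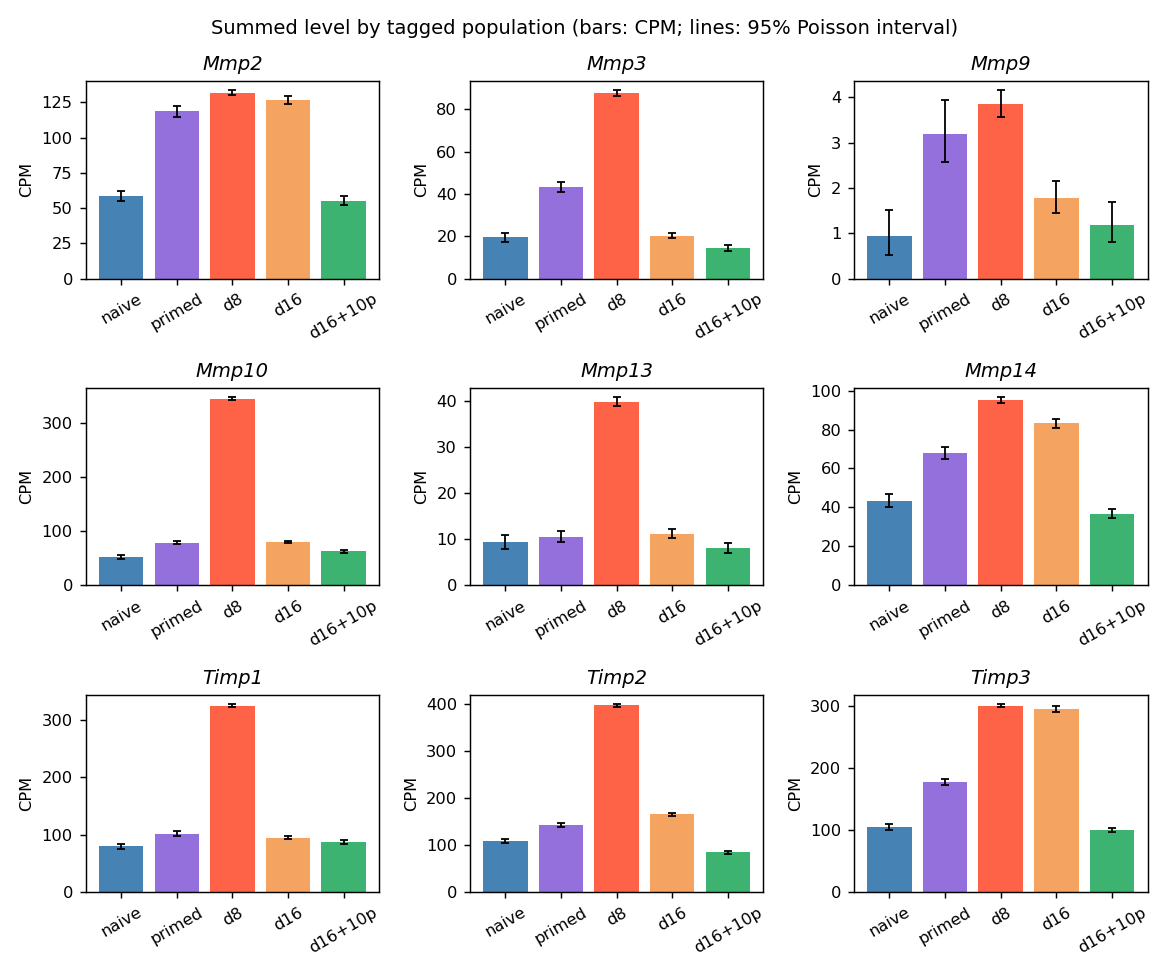
Summed level (CPM, linear axis from 0) of each of the 9 genes in the 5 tagged populations, with the 95% Poisson interval of the summed reads as lines. Mmp10, Mmp13, Timp1 and Timp2 stand out in d8 (345, 39.9, 325 and 397 CPM), while Mmp2, Mmp14 and Timp3 are about as high in d16 as in d8.

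At d8 against primed, 4 of the 8 members tested were at least 2-fold higher and 0 were at least 2-fold lower. Of the 10383 genes tested, 3.53% were at least 2-fold higher and 3.27% at least 2-fold lower. The log2 ratio, with 1 CPM added to each level, was 2.11 for Mmp10 (2.07 to 2.19), 1.83 for Mmp13, 1.66 for Timp1 and 1.46 for Timp2. Mmp3 lay just under the threshold at 2.00-fold (log2 1.00), and was at log2 1.84 without the 10 cells with the most Mmp3 reads under each tag. Timp3 was at 0.76, Mmp14 at 0.48 and Mmp2 at 0.15. The median over the members was 1.23, beside -0.02 over all genes tested. The ratio was also taken against the 423 primed-tagged cells of cluster 12 alone, which leaves out the 416 primed-tagged cells of cluster 2. With this reference 7 members were at least 2-fold higher at d8, all except Mmp14 and Mmp9, of which Mmp9 was under 10 CPM and not tested. The share of all genes past 2-fold with this reference is not given here, so the count cannot be set beside a background.

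At d16 against the same primed cells, 0 of 8 members were at least 2-fold higher, where 5.44% of genes were, and 1 was at least 2-fold lower, where 0.89% were. That gene was Mmp3, at a log2 ratio of -1.07. It rested on few cells, since 9 primed-tagged cells held 20 or more Mmp3 reads and the ratio without the 10 cells with the most Mmp3 reads under each tag was -0.16. Timp3 was at 0.73, and the other 6 were between -0.11 and 0.29. Against the primed-tagged cells of cluster 12 alone, 4 members were at least 2-fold higher at d16, namely Mmp2, Mmp13, Timp2 and Timp3. This count likewise has no share over all genes beside it.

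From d8 to d16, 5 of 8 members were at least 2-fold lower, where 3.69% of genes were, and 0 were at least 2-fold higher, where 8.5% were. The log2 ratios were -2.10 for Mmp10, -2.06 for Mmp3, -1.77 for Timp1, -1.74 for Mmp13 and -1.26 for Timp2. In contrast, Mmp14 was at -0.19, Mmp2 at -0.05 and Timp3 at -0.03. This comparison shares the d8 cells with the primed comparison above, so that the high d8 levels enter both.

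From d16 to d16+10p, 3 of 8 members were at least 2-fold lower, where 11.0% of genes were, and 0 were at least 2-fold higher, where 2.55% were. These were Timp3 at -1.55, Mmp2 at -1.18 and Mmp14 at -1.15, and Timp2 lay just under the threshold at -0.96. The genes that differed here were those that had kept their level between d8 and d16. Between d16+10p and naive, 0 of 7 members tested passed 2-fold in either direction, where 0.864% of genes were higher and 0.616% lower. The ratios lay between -0.40 for Mmp3 and 0.28 for Mmp10, and their intervals excluded 0 for 5 genes, Mmp3, Mmp10, Mmp14, Timp1 and Timp2. Both extremes leaned on single cells, since a single naive cell held 120 Mmp3 reads and a single d16+10p cell 293 Mmp10 reads. In the naive cells of cluster 11 and the d16+10p cells of cluster 7, Mmp3 was at 13.2 and 12.1 CPM and Mmp10 at 44.6 and 42.5 CPM.

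The reads of these genes came mostly from a few clusters. Cluster 1 was fibroblast-like (Col1a1, Dcn, Thy1, Lox and Postn) and held 2334 cells, of which 2162 were d8 cells. Cluster 6 was fibroblast-like with high Col3a1, and held 729 d16 and 237 primed cells. Cluster 8 was macrophage-like (all 9 of its markers, Lyz2 at the head) and held 824 d8 cells of 941. Cluster 4 was smooth muscle-like by 5 of 7 markers (Acta2, Tagln, Cnn1, Myl9 and Actg2, but not Myh11 or Des). It also held epithelial markers, with Krt8 at 1324, Krt18 at 1456 and Cldn6 at 66.3 CPM, so that its name is not a clean identity. Cluster 2, led by Lefty1, also reached the primed pluripotent-like name by its markers, but its Pou5f1 level was 120 CPM against 404 in cluster 12, and it is called by its number. Last, cluster 3 was neural-like with 1695 d16 cells.

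Mmp10 reached 1121 CPM in cluster 1, and its next levels were 259 in cluster 8 and 99.98 in cluster 6, with a median of 51.8 over the 15 clusters. Mmp3 was at 273 CPM in cluster 1, 117 in cluster 8 and 35.2 in cluster 6 (median 14.3), and Mmp13 at 114, 60.9 and 23.8 (median 6.73). Timp1 was at 973 CPM in cluster 1, 191 in cluster 8 and 130 in cluster 4 (median 77.4). The order was thus the same for the 3 stromelysin and collagenase genes, with cluster 1 at the head and the macrophage-like cluster after it. In the other 12 clusters Mmp10 stayed between 44.2 and 62.3 CPM, Mmp3 between 10.7 and 19.96, and Mmp13 between 4.66 and 10.3.

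Mmp2 had another order, with 554 CPM in cluster 6, 214 in cluster 1 and 158 in cluster 4 (median 72.8). Mmp14 followed it, with 244 CPM in cluster 6, 179 in cluster 1 and 91.0 in cluster 4 (median 49.7). In the macrophage-like cluster 8, Mmp2 was at 70.8 and Mmp14 at 77.96 CPM. Timp2 was the only member that was highest in cluster 8, at 1053 CPM, before 788 in cluster 1 and 279 in cluster 6 (median 112). Timp3 was at 548 CPM in cluster 1 (542 to 555), 542 in cluster 6 (527 to 556), 394 in cluster 3 and 342 in cluster 4 (median 164), and the intervals of clusters 1 and 6 overlapped. Timp3 in the macrophage-like cluster was at 153 CPM, below its median, where Timp2 was at its highest.

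The 4 pluripotent-like clusters (5, 7, 11 and 12), which came mainly from d16, d16+10p, naive and primed cells, were at or below the median of the 15 clusters for Mmp2, Mmp10, Mmp13, Mmp14, Timp2 and Timp3. Mmp10 was between 44.2 and 48.9 CPM in them, Timp2 between 70.1 and 79.8, Timp3 between 73.9 and 95.6 and Mmp2 between 42.7 and 53.6. Mmp14 was between 30.9 and 49.7 CPM in them. Timp1, between 54.0 and 80.6 CPM, Mmp3 and Mmp9 passed their median over clusters in at least 1 of the 4. Lyz2, a macrophage gene, was read in 55.9 to 57.3% of cells of every population after thinning to 5000 reads, and in the 4 pluripotent-like clusters it was at 196 to 203 CPM against 26463 in cluster 8. Free RNA can give such a level in a pooled capture, and its part in the low levels of the members was not tested.

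**Figure D2:**
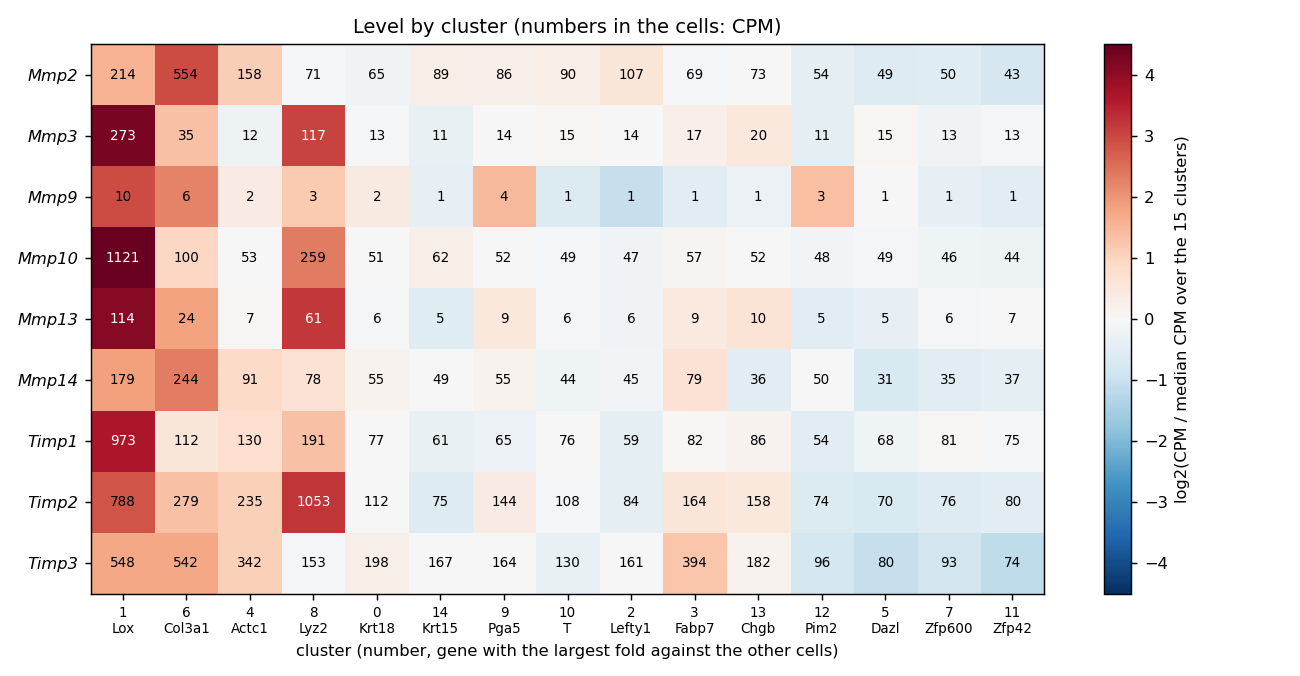
Levels of the 9 genes in the 15 clusters with at least 100 cells (numbers are CPM), coloured by the log2 ratio to the median of the gene over these clusters. Mmp3, Mmp10, Mmp13 and Timp1 are darkest in cluster 1, Mmp2 in cluster 6 and Timp2 in cluster 8, and the 4 clusters at the right (12, 5, 7 and 11) are pluripotent-like.

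Of all d8 cells 22.5% lay in cluster 1, with 25.1% of all d8 reads. It held 82.7% of the d8 reads of Mmp10, 76.5% of Mmp3, 76.0% of Timp1, 74.1% of Mmp13 and 62.9% of Mmp9. The shares were smaller for Timp2 (50.3%, with a further 24.99% in cluster 8), Mmp14 (48.0%), Timp3 (46.4%) and Mmp2 (41.6%). At d16 only 1.46% of cells lay in cluster 1. Cluster 6, with 16.9% of the d16 cells and 12.5% of their reads, then held 53.5% of the Mmp2 reads, 51.5% of the Mmp9 reads and 38.3% of the Mmp14 reads, and the neural-like cluster 3, with 39.3% of the d16 cells and 32.9% of their reads, held 44.7% of the Timp3 reads.

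Clusters 1 and 8 were also left out of every population, a choice made after seeing that they held much of the d8 reads of the members. A loss of calls therefore follows from the choice and is no separate result, and no share over all genes is given beside it. Without cluster 1, 1 member was at least 2-fold higher at d8 than in primed, Timp2, and 0 were at least 2-fold lower at d16 than at d8. Without clusters 1 and 8 both counts were 0, and the log2 ratio of d8 to primed was -0.03 for Mmp10 and -0.48 for Mmp13.

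**Figure D3:**
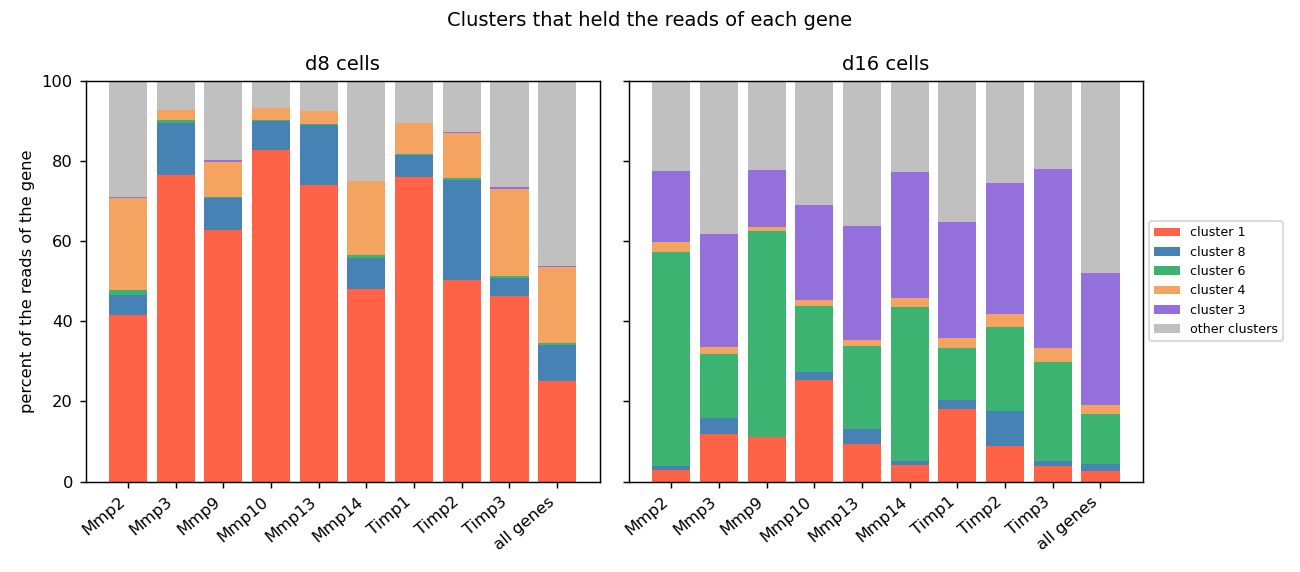
Percent of the reads of each gene that lay in clusters 1, 8, 6, 4, 3 and all others, in d8 and in d16 cells, with the same shares of the reads of all genes as the last bar. In d8 cluster 1 holds 82.7% of the Mmp10 reads against 25.1% of all reads, and in d16 cluster 6 holds 53.5% of the Mmp2 reads against 12.5%.

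Within cluster 1 the members were compared between cells under different tags. The cluster held 3.83% of primed-tagged and 1.46% of d16-tagged cells, but also 2.62% of naive-tagged and 1.56% of d16+10p-tagged cells. Some of its cells under the smaller tags can therefore be d8 cells with a wrong tag, which was not tested. Mmp10 was at 1138 CPM in the 2162 d8 cells, 828 in the 70 primed-tagged cells and 777 in the 63 d16 cells, and Timp1 was at 986, 1053 and 656 CPM. Timp2 was at 798, 805 and 565 CPM. For these 3 genes the levels at d8 and in primed-tagged cells were closer to each other than those of the whole populations. Mmp13 was not, at 118 CPM in d8, 15.6 in primed-tagged and 40.04 in d16 cells of the cluster, where a single cell held 28.6% of the 14 primed reads and a single cell 70.7% of the 58 d16 reads. Mmp3 was at 831 CPM in the primed-tagged cells, 267 in the d8 cells and 92.5 in the d16 cells, but a single cell held 38.7% of the primed reads and a single cell 58.2% of the d16 reads. The share of thinned cells with a Mmp3 read was 38.5% (23.4 to 55.4%) in primed-tagged, 20.5% in d8 and 12.5% (5.18 to 24.1%) in d16 cells of the cluster. In cluster 6, Mmp2 was at 675 CPM in the 237 primed-tagged cells, 349 in 63 d8 cells and 543 in 729 d16 cells.

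The members also differed in how evenly cells shared their reads. In 1891 d8 cells of cluster 1 thinned to 5000 reads, 91.3% had a Timp2 read, 77.9% a Timp1 read, 66.8% a Mmp10 read, 51.8% a Timp3 read, 50.4% a Mmp14 read and 48.6% a Mmp2 read. Mmp3 was read in 20.5% and Mmp13 in 12.3% of these cells. Levels per cell were CPM from all reads of the same cells, without thinning. The 10% of cells with the highest level held 93.3% of the summed Mmp13 level and 88.3% of that of Mmp3, against 45.01% for Mmp10, 31.6% for Mmp14 and 24.3% for Timp2. Mmp3 and Mmp13 were thus carried by a small part of the cluster at very high counts, up to 628 Mmp3 and 359 Mmp13 reads in a d8 cell, whereas Timp2 was spread over nearly all of it. Timp3 was between them, with 64.8% of its level in 10% of the cells and 10.4% of cells at 10 or more times its median.

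Pairs of members were weakly related in these 1891 cells. Pearson correlations were taken on log2(CPM + 1) from all reads of a cell, without thinning, so that unequal depth can enter them. The largest were 0.21 between Mmp2 and Mmp14 and -0.20 for Mmp10 with both Timp1 and Timp3. Mmp10 was read in 63.6% of the 1473 cells with a Timp1 read and in 78.2% of the 418 cells without, and in 59.9% of the cells with a Timp3 read and 74.3% of those without. All these pairs come from 1 library, and values this weak are a description of sparse counts. Mmp3 and Mmp13, in spite of their like order over clusters, were at 0.12.

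The macrophage-like cluster held a minority of cells with fibroblast reads. Of its 830 thinned cells, 174 had 3 or more reads of Lox and Postn together, and these cells were at 687 CPM for Mmp10, 315 for Mmp3 and 458 for Timp1. Without them Mmp10 in the cluster was at 118 CPM, down from 259, Mmp3 at 51.1, down from 116, and Timp1 at 99.8, down from 188. Timp2 was at 1068 CPM without them and at 1055 with them, and Mmp13 at 43.3 and 61.0 CPM. The Timp2 level of the cluster was therefore much the same with and without the cells with fibroblast reads, while its Mmp10, Mmp3 and Timp1 levels were not. Whether those cells were doublets was not tested.

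Co-detection asked whether single d8 and d16 cells with a read of Col1a1 (a fibroblast collagen), Krt18 (an epithelial keratin) or Lyz2 held the members more often than cells without one. With 1 read as the limit, 0 of the 9 members at d8 and 0 of the 8 that passed the limit of 1% of cells at d16 were read at least 2 times as often with any of the 3 markers. The same was true of 0.51% of all genes for Col1a1, 1.54% for Krt18 and 1.43% for Lyz2 at d8, and of 1.83%, 0.269% and 0.223% at d16. A single read separated the cells poorly, as the Lyz2 shares above show. Of the members past the 1% limit at d16, Mmp2 was closest, in 43.4% of cells with a Col1a1 read and 22.5% of the others (1.93 times). Mmp9, below that limit, was read in 1.61% and 0.344% of these cells.

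With 3 reads as the limit, the members separated more clearly. At d16, Mmp2 was read in 69.9% of the 684 cells with 3 or more Col1a1 reads and in 23.4% of the 3027 others (2.99 times), and Mmp14 in 53.4% and 22.6% (2.36 times), where 3.7% of genes reached 2 times. Timp3 followed with 76.0% and 49.4%, while Mmp10 was at 22.1% and 20.1%. Mmp9 was read in 3.36% and 0.363% of these cells, again below the limit for a call. Col1a1 was at 3057 CPM in cluster 6 and 472 in cluster 1.

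At d8, cells with 3 or more Col1a1 reads held every member more often. The largest ratio was that of Mmp9, which few cells held (2.08% of 1012 cells and 1.12% of 7860 others, 1.85 times). Timp1 was next (64.0% and 36.5%, 1.75 times), then Mmp14 (45.3% and 27.7%). None of the 9 reached 2 times, where 2.03% of genes did. Cells with 3 or more Krt18 reads held 8 of the 9 less often than the others, and 0 at least 2 times as often, where 1.41% of genes were. Mmp13 was read in 3.28% and 6.95% of these cells, Mmp3 in 5.57% and 11.6%, Mmp10 in 21.1% and 37.6% and Timp1 in 31.2% and 46.0%. Timp3 was the exception, at 51.1% in cells with Krt18 and 46.6% in the others. Krt18 was at 3148 CPM in the epithelial-like cluster 0 and 1456 CPM in cluster 4, which held smooth muscle and epithelial markers. Timp3 was at 198 and 342 CPM in these clusters. With 3 or more Lyz2 reads, Timp2 was read in 73.9% of 1457 cells and 52.6% of the others, whereas Mmp10 was at 30.5% in both. Mmp13 was at 7.82% and 4.89%. No member reached 2 times with Lyz2, where 3.2% of genes did. At d16 no member that passed the 1% limit did with Krt18 (1.2% of genes) or Lyz2 (0.932% of genes), and Timp2 was read in 50.5% of the cells with 3 or more Lyz2 reads and 42.7% of the others.

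**Figure D4:**
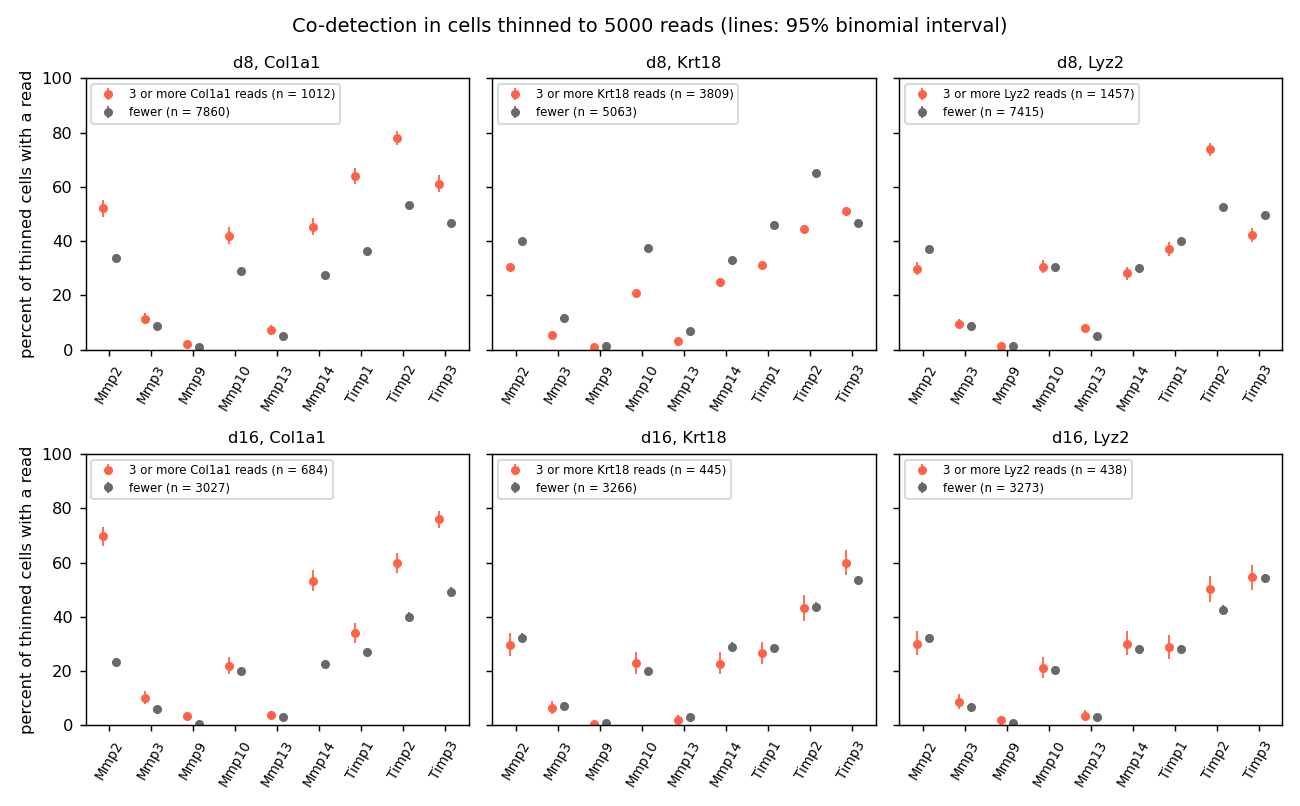
Percent of cells, thinned to 5000 reads, with a read of each gene in cells with 3 or more reads of Col1a1, Krt18 or Lyz2 (red) and in the other cells (grey), in d8 (upper row) and d16 (lower row), with exact 95% binomial intervals. The widest gaps are those of Mmp2 (69.9 and 23.4%) and Mmp14 (53.4 and 22.6%) with Col1a1 at d16.

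The share of cells with a read by population, in cells thinned to 5000 reads, moved less than the summed levels. Mmp10 was read in 19.6% of naive and 20.9% of primed cells, in 30.5% at d8, 20.5% at d16 and 18.9% in d16+10p, and without thinning in 49.6, 43.9, 53.2, 38.1 and 51.5%. Mmp3 was read in 6.41, 6.69, 9.03, 6.90 and 7.02% of thinned cells. The 4 populations other than d8 were thus between 18.9 and 20.9% for Mmp10. Timp2 had 34.4, 38.6, 56.1, 43.6 and 27.9%, and Timp3 36.4, 44.6, 48.5, 54.3 and 33.0%. Cells with 20 or more reads separated the populations more sharply, and for Mmp10 they were 7.53% of d8 cells and between 0.375 and 0.533% of the cells of each other population.

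The genes with the pattern most like each member were found by the Pearson correlation of log2(CPM + 1) over the 15 clusters, among 13817 genes. They were Ccl7, Lox and Prl2c2 for Mmp10 (0.99 each), Gng11, Il4ra and Ccl8 for Mmp3 (0.98 to 0.99), and Gng11, AC109138.2 and Arhgdib for Mmp13 (0.98 to 0.99). For Mmp2 they were the collagen genes Col5a1 and Col1a1 with Cd248 (0.92 to 0.94), and for Mmp14 they included Fbn1, which encodes the microfibril protein fibrillin (0.96), and Ssr3 (0.94). Timp1 was most like Prkg2, Inhba and Aebp1 (0.98), and among the genes most like Timp2 were Ctsb and Ctsl, which encode lysosomal cathepsins (0.95 each). Timp3 was most like Parva, Syn3 and Dnajb4 (0.96 to 0.97), of which Syn3 shares exonic bases with it. Among the members, Mmp3, Mmp10 and Mmp13 were at 0.95 to 0.98 with each other, Mmp2 was at 0.88 with Mmp14 and at 0.43 with Mmp3. These values share 1 library, and Mmp9 was too low for its likeness to be read.

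Other genes of matrix proteolysis were counted by the same 2-fold rule. Of 16 other Mmp genes in the table, 6 were tested at d8 against primed, and Mmp12 and Mmp8 were higher and Mmp25 lower. Mmp12, the macrophage elastase, was at 112 CPM in primed, 318 in d8 and 82.7 in d16, and at 2151 CPM in cluster 8 against 243 in cluster 1. Mmp8, the neutrophil collagenase, was at 183 CPM in cluster 8 and 17.6 in cluster 1. Both were at least 2-fold lower at d16 than at d8, so that the Mmp genes that were high at d8 lay in the macrophage-like as well as the fibroblast-like cells. Mmp11 was at 38.3 CPM in d8 and 43.5 in d16.

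Plasminogen activation is a protease cascade that can activate Mmp proenzymes. Of its genes, Serpinb2, an inhibitor of plasminogen activators, was at 8.72 CPM in primed and 39.3 in d8, and was highest in cluster 1, at 126 CPM, as were Mmp10 and Timp1. It was at least 2-fold lower at d16 than at d8, as was the receptor gene Plaur. The activator gene Plat was at least 2-fold higher, at 69.7 CPM in d8 and 207 in d16, and was highest in clusters 3 and 6.

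Of the 3 other inhibitors, A2m, a broad protease inhibitor of plasma, was the only gene tested. It was at 36.7 CPM in primed cells, 16.4 at d8, 132 at d16 and 24.1 in d16+10p, and was highest in the neural-like cluster 3, at 260 CPM. Of 12 ADAM and ADAMTS genes, 11 were tested at d8 against primed and Adam8 and Adam12 were higher. Adam8 was at 623 CPM in cluster 8. At d16 against d8 both were lower and Adamts1 was higher (90.8 and 184 CPM).

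Of 5 genes of activation and clearance, Cd44 and Cd63 were higher at d8 than in primed. Cd63 was at 753 CPM in primed, 1510 in d8 and 1027 in d16. It encodes the protein bound by an antibody that carried the tags, and its part in the tagging was not tested. Of 13 AP-1 and cytokine genes, 9 were tested at d8 against primed and only Il6 was at least 2-fold higher. At d16 against d8, Fos (531 and 1275 CPM) and Fosb (128 and 445 CPM) were higher and Fosl1, Il6 and Tgfb1 lower. Fos was highest in clusters 3 and 6, at 2131 and 1844 CPM, as was Fosb, at 752 and 736 CPM. Il6 and Tgfb1 were highest in cluster 1, at 42.7 and 59.8 CPM. Fosl1 was at 79.6 CPM in the epithelial-like cluster 14 and 27.0 in cluster 1.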

How the data were processed

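The deposited table holds raw read counts for every gene symbol in every cell. According to the labels and the study's methods, the authors captured tagged cells on BD Rhapsody, amplified cDNA by TAS-Seq, trimmed with cutadapt 2.10, mapped with Bowtie2 2.3.4.1 to Ensembl cDNA and ncRNA of GRCm38.p6, counted reads per symbol and barcode, and removed barcodes below the knee and cells with an unclear tag as doublets. No doublet caller was run here. No collapsing of molecular identifiers and no strand setting are given in the sources used here, so intervals cover counting error of reads only. The tag library itself was not analysed here.

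All 17720 cells, with 3179 to 111822 reads each, were used. The population was read from the tag in each column name. A gene entered a comparison at 10 CPM or more in either population, and was called at 2-fold with a pseudocount of 1 CPM. Intervals are exact Poisson for sums and Clopper-Pearson for shares, at 95%. Shares were taken after thinning each cell to 5000 reads, which left 8872 cells at d8, 3711 at d16, 1082 in d16+10p, 733 in naive and 1555 in primed. A gene entered co-detection with a read in at least 1% of thinned cells. Clusters were made with Seurat 5.3.0 in R 4.3.3 (2000 variable genes, 56 components, 50 neighbours, resolution 0.8) and named from marker lists. The listed genes were left out, except Col1a1, Krt18, Lyz2 and the AP-1 and cytokine genes, which could be among the variable genes. A cluster was given a name when at least 3 of its markers were at 2 or more times their median over clusters and its leading genes held at least as many markers of that type as of any other, and rebuilt clusters can differ from those of the study. edgeR 4.0.16 gave the TMM alternative, and no test was run. Ratios and shares were tested on simulated sums. Gene positions are from GENCODE M21. The members and lists were chosen with earlier results of these data known. Named genes are the 9 members, the 3 marker genes, at most 4 genes of the highest CPM per list and those past 2-fold, and the 3 genes most like each member. Results that need some items are not reported here.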

Additional observations from a re-analysis of the deposited data

How the results depend on the processing

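No paired analysis was possible because no population had a replicate. Of 67 counts of members under the alternatives, 58 stayed within 1.5 times of the reported count. The other 9 were these, and the alternatives that leave out clusters or change the primed reference were chosen after seeing the data. Without cluster 1, 1 member was at least 2-fold higher at d8 than in primed and 0 were lower at d16 than at d8, and without clusters 1 and 8 both were 0. With the primed-tagged cells of cluster 12 as the reference, 7 members were higher at d8 and 4 at d16. No share over all genes is given for the counts with clusters left out or with this reference. For co-detection with Col1a1 at d16, the count was 1 after thinning to 3000 reads (Mmp2), 1 without thinning (Mmp9) and 2 with a limit of 3 reads (Mmp2 and Mmp14), beside 0. The counts at 3000 reads and without thinning have no share over all genes beside them either. Of 387 log2 ratios, 229 stayed within the counting interval of the reported value, 150 moved past it and 8 changed sign where called. Without clusters 1 and 8, d8 to primed was -0.03 for Mmp10 and -0.48 for Mmp13, and d16 to d8 was 0.33 for Mmp3, 0.23 for Mmp10 and 0.56 for Mmp13. For Mmp3, d16 to primed was 0.09 without cluster 1, 0.18 without clusters 1 and 8, and 0.83 with the cluster 12 reference. These alternatives remove the cells that held most of the reads, and the cause beyond that was not tested. Mmp3 was also past 2-fold at d8 under TMM scaling, with cells of at least 1500 genes, and without the 10 cells with the most reads of it (log2 1.84). TMM scaling moved d16 to d8 for Mmp10 from -2.10 to -2.20 and d16+10p to d16 for Timp3 from -1.55 to -1.39. The 18 cluster levels recomputed at resolution 0.4 and from all genes moved by less than the limit. Mmp9, at under 4 CPM, is limited by depth.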
